A study of Oreochromis niloticus with 6 samples.

Results

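The enzymes and transporters with which the liver makes new glucose and releases it were examined in Nile tilapia (Oreochromis niloticus) fed diets of different fat content. Genes were taken by name: the phosphoenolpyruvate carboxykinases, fructose bisphosphatases, glucose-6-phosphatases, pyruvate carboxylase, the glucose-6-phosphate translocase and the glucose transporter slc2a2. The name rule matched 9 of the 26490 gene IDs of the deposited mRNA table, namely pck1, pck2, fbp1b, fbp2, g6pca.1, g6pca.2, slc37a4a, slc37a4b and slc2a2. Pyruvate carboxylase, fbp1a and g6pc3 matched no entry and were not analysed here.

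The fish were wild-type male juveniles of the GIFT strain, a line bred for growth, and ate for 56 days either a high-fat diet with 18.5% lipid (HFD) or a normal-fat diet with 8% lipid (NFD). Each diet gave 3 liver libraries of total RNA from which ribosomal RNA had been removed. Per the labels' protocols RNA of 3 fish samples per group was mixed, and it is not stated whether the libraries of one diet come from separate mixtures. The p-values thus reflect only how far libraries of one diet differ from each other, a spread that may be technical. Values are FPKM (fragments counted for a transcript, relative to its length and to the library size), so levels can be set side by side between genes. Summed FPKM of the mRNA table lay between 141024 and 170847 per library; the depth in reads is unknown. In bulk liver RNA, fewer cells of a type and less RNA per cell cannot be told apart.

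Gluconeogenesis builds glucose from lactate, amino acids and glycerol, and in vertebrates the liver is its main site during fasting. Most of its steps are glycolytic reactions run backwards. The irreversible ones are bypassed by pyruvate carboxylase with phosphoenolpyruvate carboxykinase, by fructose bisphosphatase and by glucose-6-phosphatase. The last enzyme sits in the endoplasmic reticulum, where the translocase SLC37A4 delivers its substrate, and glucose leaves the hepatocyte through the transporter GLUT2, encoded by slc2a2. In mammals fasting hormones raise, and insulin lowers, the transcription of these enzymes through CREB with its CRTC coactivators, FOXO1 and HNF4A.

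The entry enzyme phosphoenolpyruvate carboxykinase turns oxaloacetate into phosphoenolpyruvate, in the cytosol (pck1) or in mitochondria (pck2). Cytosolic pck1 (MSTRG.15137) was at 0.408, 7.01 and 1.19 FPKM in HFD replicates 1, 2 and 3, and at 0.265 and 0.175 FPKM in NFD replicates 2 and 3. NFD replicate 1 has no estimate of pck1, which is no measurement of a low level. The HFD libraries lay above the 2 NFD libraries with an estimate, but HFD replicate 2 held most of the signal. The HFD mean was 13.1 times the mean of these 2 NFD libraries, and 3.64 times without HFD replicate 2. Because pck1 reached 0.5 FPKM in only 2 libraries it missed the filter for testing. In the fit without a filter, where the missing estimate entered as 0, its log2 fold change (HFD minus NFD, on log2(FPKM + 0.5)) was 1.83 ± 0.77 SE, with a 95% confidence interval that included 0 and a limma adjusted p of 0.895. All of it came from 1 of the 2 transcript models of the gene; the other had no estimate in any of the 6 libraries.

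Mitochondrial pck2 (MSTRG.37732) was at 3.83, 5.74 and 4.26 FPKM in the HFD libraries and at 2.32, 1.76 and 4.82 in the NFD libraries. The diets overlapped, since NFD replicate 3 exceeded HFD replicates 1 and 3. Its log2 fold change was 0.64 ± 0.36 SE, with a 95% interval from -0.22 to 1.5 and a limma adjusted p of 0.898. Of the summed level of both carboxykinases, the cytosolic form made up 9.62%, 55% and 21.8% in the HFD libraries, and 13.1% and 3.49% in NFD replicates 2 and 3. HFD replicate 1 lay below NFD replicate 2 in this share, so the diets overlapped in it.

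Fructose bisphosphatase removes a phosphate from fructose bisphosphate, the reverse of the phosphofructokinase step. The liver-type gene fbp1b (MSTRG.17063) was the most abundant of the 9, at 179, 241 and 160 FPKM in HFD and 133, 104 and 101 FPKM in NFD. All HFD libraries were above all NFD libraries, with the narrowest gap between HFD replicate 3 and NFD replicate 1. The mean level was 1.72 times as high in HFD, and the log2 fold change was 0.77 ± 0.25 SE with a 95% interval from 0.16 to 1.37, which takes no account of the number of genes tested. Over all genes the difference did not pass (limma, unadjusted p = 0.0207, adjusted p = 0.753). The paralogue fbp2 (MSTRG.9570), the muscle-type enzyme of mammals, was at 0.0554 and 0.134 FPKM in HFD replicates 1 and 2, at 0.0196 in NFD replicate 2, and without an estimate in the other libraries; it was not tested.

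Glucose-6-phosphatase frees glucose from glucose-6-phosphate, the last step of both gluconeogenesis and glycogen breakdown. The copy g6pca.1 (MSTRG.15583) was at 24.9, 28.6 and 21.1 FPKM in HFD and at 11.7, 7.25 and 13.4 FPKM in NFD. The diets did not overlap, and the mean was 2.31 times as high in HFD. The log2 fold change was 1.20 ± 0.28 SE, with a 95% interval from 0.53 to 1.87. This gene ranked 69 by p-value among the 9204 genes tested, and it did not pass over all of them (limma, unadjusted p = 0.00448, adjusted p = 0.585).

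The second copy, g6pca.2 (MSTRG.15586), had a similar mean over all 6 libraries, 21.4 against 17.8 FPKM, and no such pattern. By diet its mean was 20.4 FPKM in HFD and 22.4 in NFD, against 24.9 and 10.8 for g6pca.1. The libraries of g6pca.2 were at 24.8, 13.7 and 22.6 FPKM in HFD and at 30.8, 7.76 and 28.8 FPKM in NFD. NFD replicates 1 and 3 were the highest libraries and NFD replicate 2 the lowest, so the NFD values enclosed all HFD values. Its log2 fold change was 0.04 ± 0.56 SE (95% interval from -1.32 to 1.41, limma adjusted p = 0.999). The interval is wide enough to hold the value of g6pca.1, and the difference between the copies was not tested. In the NCBI gene table of the assembly O_niloticus_UMD_NMBU the genes g6pc1a.1 and g6pc1a.2 are adjacent entries, with nbr1a, psme3 and tmem106a close by. The deposited gene numbers put tmem106a before g6pca.1, and nbr1a and psme3 between g6pca.1 and g6pca.2, so that there the copies are not adjacent. That the deposited names stand for these NCBI genes is inferred from the shared neighbours only. Reads that fit both copies could have been divided between them, so the split of the values between the copies is uncertain.

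Within each library, g6pca.1 made up 50.1%, 67.7% and 48.2% of the summed level of both copies in HFD, and 27.6%, 48.3% and 31.7% in NFD. HFD replicate 3 and NFD replicate 2 thus had almost the same share, and the diets overlapped by that margin. The summed level of both copies was 49.7, 42.3 and 43.7 FPKM in HFD and 42.5, 15 and 42.2 FPKM in NFD. Apart from NFD replicate 2, which was low in both copies, the summed levels lay close together in the 2 diets.

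Glucose-6-phosphate reaches the enzyme through the translocase of the endoplasmic reticulum, which tilapia carry as the duplicates slc37a4a and slc37a4b. The duplicate slc37a4a (MSTRG.5769) was at 0.602, 7.81 and 5.73 FPKM in HFD and at 2.48, 5.60 and 3.66 FPKM in NFD. HFD replicates 1 and 2 were the lowest and the highest of all libraries, a 13-fold range, and within a diet slc37a4a varied more than 95.1% of tested genes. Its log2 fold change was -0.14 ± 0.78 SE (limma adjusted p = 0.993). The duplicate slc37a4b (MSTRG.35197) was lower, at 0.871, 0.163 and 1.01 FPKM in HFD and 1.23, 1.60 and 0.820 FPKM in NFD. These values overlapped, with a log2 fold change of -0.60 ± 0.37 SE (95% interval from -1.5 to 0.29, limma adjusted p = 0.907).

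The exit transporter slc2a2 (MSTRG.7200) was at 42.7, 111 and 40.6 FPKM in HFD and at 49.0, 38.5 and 103 FPKM in NFD. One library of each diet, HFD replicate 2 and NFD replicate 3, stood above 100 FPKM, and the other 4 lay between 38.5 and 49.0. The diet means were 64.8 ± 40.1 and 63.5 ± 34.5 FPKM (SD, n = 3 each), and the 95% interval of the log2 fold change ran from -1.30 to 1.29 (limma adjusted p = 1).

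**Figure D1:**
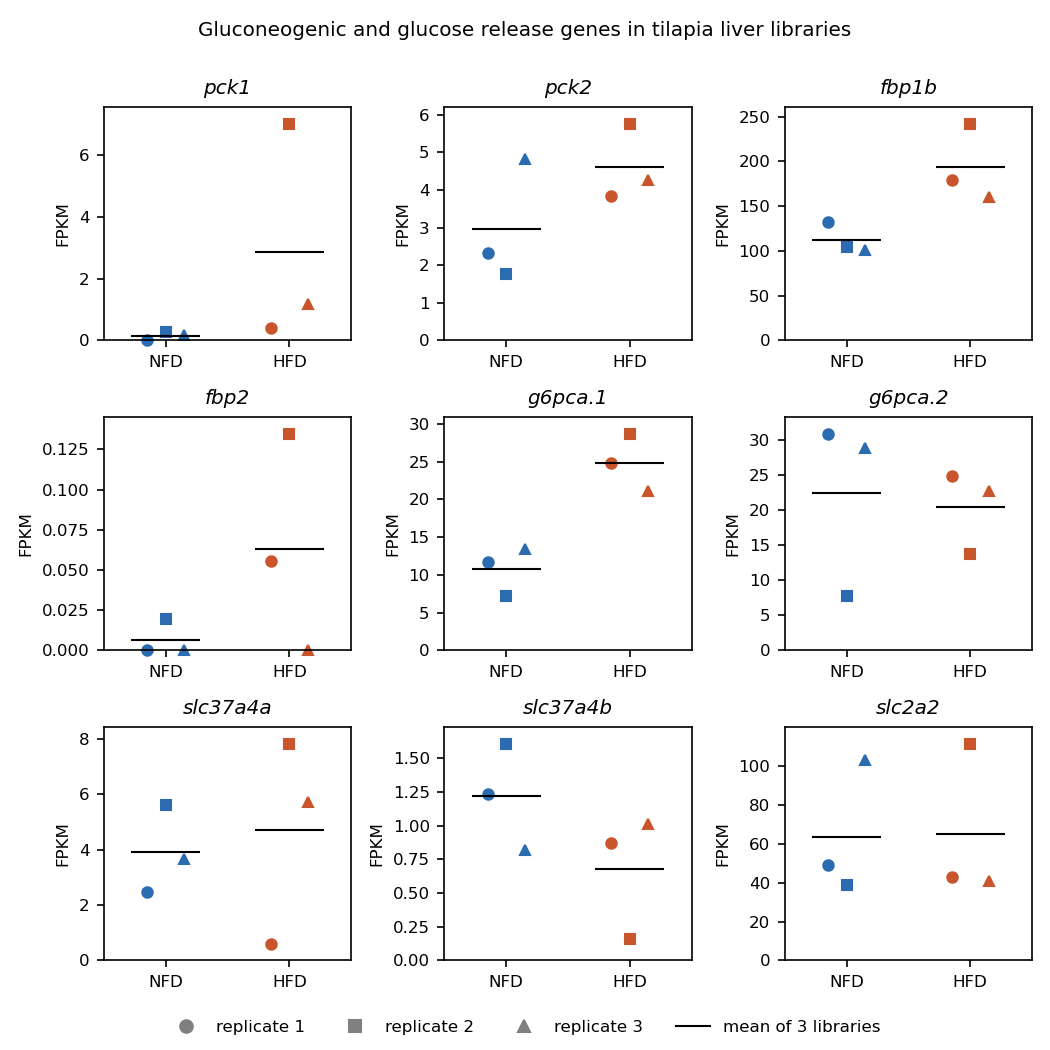
FPKM of the 9 genes in each library, one panel per gene with its own linear axis; symbols mark the replicate number, colours the diet, and the black line the mean of 3 libraries. Points at 0 stand for missing estimates and enter the means as 0. All HFD points lie above all NFD points for fbp1b and g6pca.1, and HFD replicate 2 is the highest library in 7 panels.

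Of the 9 genes, 7 passed the filter of at least 0.5 FPKM in at least 3 libraries. In limma 0 of these 7 had an adjusted p under 0.05, as did 0% of all 9204 genes. By the sign of the log2 fold change 4 of the 7 were higher in HFD, as were 50.4% of all tested genes, and 3 were lower. The count was 5 of 7 with trimmed-mean centring, with quantile normalization, without HFD replicate 1 and without NFD replicate 3. With no filter, where missing estimates entered as 0, it was 6 of 9. For g6pca.2, slc37a4a and slc2a2 the mean FPKM differed in the opposite direction to the log2 fold change. The median log2 fold change was 0.04 for the 7 genes and 0.00 over all genes. All HFD libraries lay above all NFD libraries in 2 of the 7, fbp1b and g6pca.1, where 5.48% of all tested genes did so. Pck1, which was not tested, had this pattern only with the missing estimate of NFD replicate 1 taken as 0; with missing estimates so taken it occurred in 4.7% of all genes with any value above 0. At an unadjusted p under 0.05 and higher in HFD stood the same 2 genes, against 2.67% of all tested genes. These genes were brought together with earlier results of the same libraries known, so the counts describe them and add no independent evidence.

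**Figure D2:**
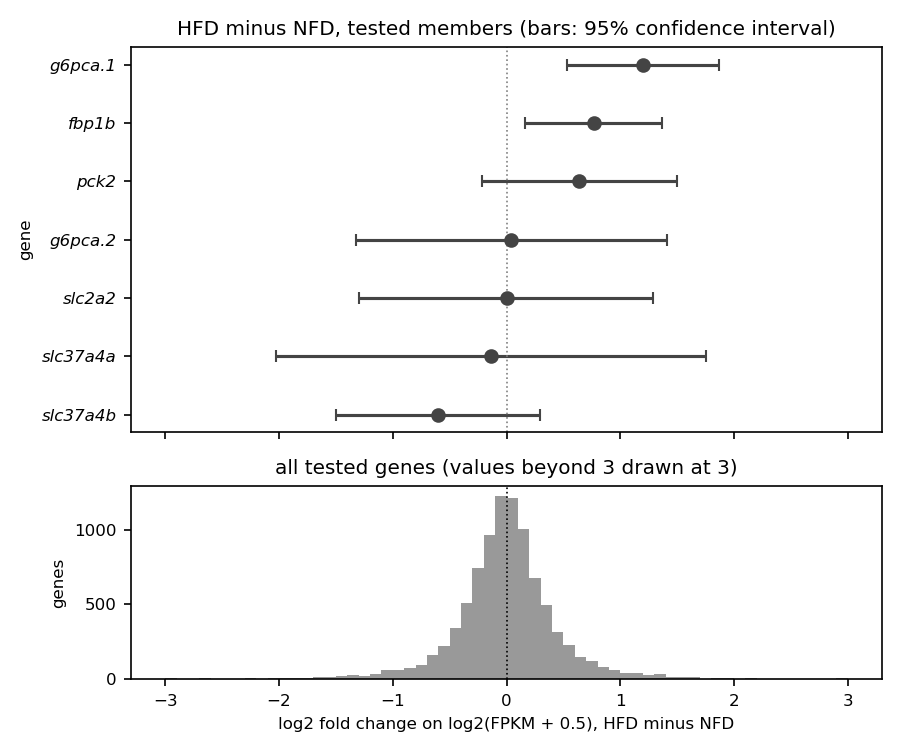
Top, log2 fold change (HFD minus NFD) of the 7 tested genes with 95% confidence intervals, not adjusted for the number of genes; bottom, the distribution over all 9204 tested genes. The intervals of g6pca.1 (0.53 to 1.87) and fbp1b (0.16 to 1.37) lie above 0, and those of the other 5 include it.

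By mean level over the 6 libraries, with missing estimates as 0, the order was fbp1b (153 FPKM), slc2a2 (64.1), g6pca.2 (21.4), g6pca.1 (17.8), slc37a4a (4.32), pck2 (3.79), pck1 (1.51), slc37a4b (0.951) and fbp2 (0.0349). Fbp1b ranked 139 by level among the 9204 tested genes, and its level exceeded those of the carboxykinases and glucose-6-phosphatases in every library. The 6-library ranges of neighbours in this order overlapped except between slc2a2 and g6pca.2 and between slc37a4b and fbp2. Fbp1b exceeded slc2a2 in 5 of 6 libraries, g6pca.2 exceeded g6pca.1 in 4, slc37a4a exceeded pck2 in 4, and pck1 exceeded slc37a4b in 2.

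The highest or the lowest values of several of the 9 genes fell in the same library. HFD replicate 2 held the highest value of 7 of the 9 genes, all but g6pca.2 and slc37a4b. Of these 7, pck1 and fbp2 were not tested and lacked an estimate in some libraries. The tested genes of the pathway highest in HFD replicate 2 were fbp1b, slc2a2, g6pca.1, slc37a4a and pck2. Among all tested genes HFD replicate 2 held the highest value of 16.3%. HFD replicate 2 also held the lowest value of slc37a4b, and in g6pca.2 it was the lowest HFD library, at 13.7 FPKM. NFD replicate 2 was lowest in slc2a2, g6pca.1, g6pca.2 and pck2, where it was lowest in 10.2% of all tested genes, and it was highest in slc37a4b. Without HFD replicate 2 the log2 fold change was 1.1 for g6pca.1 and 0.60 for fbp1b, and without NFD replicate 2 it was 0.95 and 0.72. Leaving out each library in turn, g6pca.1 and fbp1b stayed higher in HFD and past no threshold.

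Ratios taken within a library do not depend on how libraries were scaled. The phosphofructokinase pfkla (MSTRG.13639), which drives the opposite reaction to fbp1b, was at 1.56 to 1.74 FPKM in HFD and 1.23 to 1.84 FPKM in NFD. The ratio of fbp1b to pfkla was 103, 155 and 96.6 in the HFD libraries and 81.6, 56.6 and 82.4 in the NFD libraries, without overlap. Fbp1b alone did not overlap either, and pfkla had a log2 fold change of 0.07, so this ratio mostly restates fbp1b. No ratio was taken to the phosphofructokinases pfkma and pfkpa, whose log2 fold changes were -0.19 and 0.41. Glucokinase, gck (MSTRG.18957), which phosphorylates glucose and so opposes glucose-6-phosphatase, was at 0.881, 0.0478 and 0.0479 FPKM in HFD and at 0.0635, 0.0693 and 2.58 FPKM in NFD. One library of each diet held most of its signal, and the ratio of g6pca.1 to gck ran from 28.2 to 599 in HFD and from 5.18 to 184 in NFD, with overlap. The ratio of fbp1b to pgk1, a kinase of the shared steps, was 2.50 to 3.97 in HFD and 2.14 to 3.62 in NFD, and that of fbp1b to g6pca.1 was 7.19 to 8.44 and 7.56 to 14.4, both with overlap. The ratio of fbp1b to the transketolase tktb was 2.88 to 4.91 in HFD and 1.05 to 1.36 in NFD. It could not overlap, since fbp1b was higher and tktb lower in every HFD library than in every NFD library. These ratios were chosen after values were seen and were not tested.

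**Figure D3:**
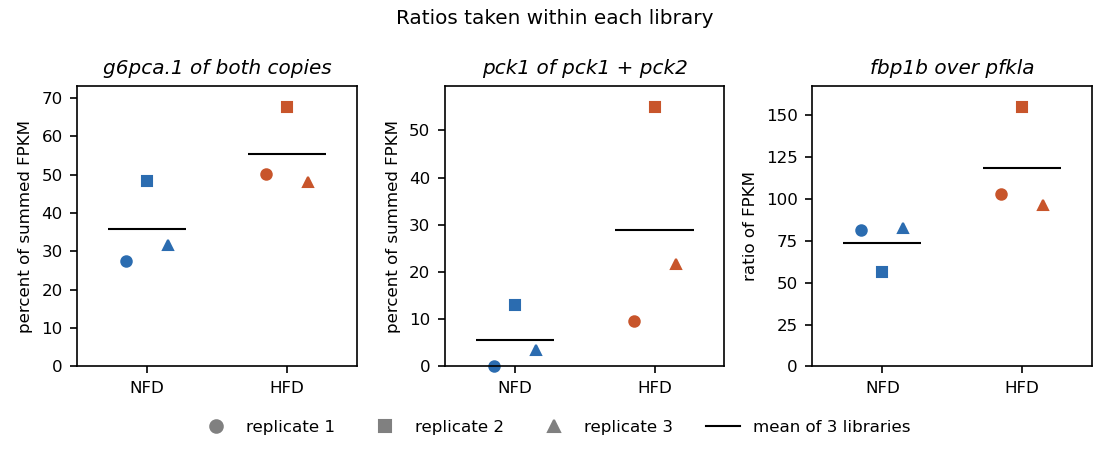
Share of g6pca.1 in the summed FPKM of g6pca.1 and g6pca.2, share of pck1 in that of pck1 and pck2, both in percent, and the ratio of fbp1b to pfkla, by diet and replicate; black lines are means of 3 libraries, and the pck1 share of NFD replicate 1 is drawn at 0 for want of an estimate. The fbp1b to pfkla ratio does not overlap between diets (96.6 to 155 in HFD, 56.6 to 82.4 in NFD), whereas both shares do. Fbp1b alone does not overlap either.

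Likeness of pattern was measured as Pearson's r of log2(FPKM + 0.5) over the 6 libraries among 6720 other tested genes with a name. The genes most like g6pca.1 were dvl2 (r = 0.994), a Wnt signalling protein, the triglyceride lipase pnpla2 (r = 0.987) and the transcription factor sox8a (r = 0.987). In pnpla2 (MSTRG.4355) the levels were 12.4, 17.5 and 12.6 FPKM in HFD and 6.78, 3.69 and 8.21 in NFD. Its order of libraries was that of g6pca.1 in NFD but not in HFD, where replicates 1 and 3 were reversed. Those most like fbp1b were the deubiquitinase otud6b (r = 0.984), the G protein subunit gnav1 (r = 0.982) and the exchange factor ARHGEF28 (r = 0.981). Among the genes of the pathway, g6pca.1 and fbp1b had r = 0.883 with each other, and g6pca.1 had r = 0.832 with pck2, 0.317 with its own copy g6pca.2 and -0.778 with slc37a4b. With 6 libraries, 58 genes exceeded an r of 0.9 with g6pca.1 and 48 with fbp1b, and all these values share the same libraries and diet groups.

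The reversible steps between the bypass enzymes are shared with glycolysis. The glycolysis list held them together with irreversible steps, such as hk2, pfkla and pkma, and regulators such as PFKFB1. Its counts thus do not describe the shared steps alone. Of 20 tested genes of this list 11 were higher with the high-fat diet and 9 lower, and 0 passed in either direction. The median log2 fold change was 0.09 against 0.00 over all genes. Levels of pgk1 (MSTRG.19714), phosphoglycerate kinase, were 66.1, 60.7 and 63.9 FPKM in HFD and 36.6, 44.6 and 47.3 FPKM in NFD, without overlap, with a log2 fold change of 0.57 ± 0.19 SE (limma adjusted p = 0.763). The enolase eno1a (MSTRG.9993) was the 1 member with every HFD library below every NFD library, at 0.252 ± 0.252 and 0.919 ± 0.557 FPKM (SD, n = 3 each). These levels are near the filter, and the gap was narrow, 0.533 FPKM in HFD replicate 3 against 0.564 in NFD replicate 3. The enolases eno1b and eno3 had log2 fold changes of 0.59 and -0.11. Triosephosphate isomerase tpi1b (MSTRG.18465) was at 39.7 ± 4.72 and 31.6 ± 7.06 FPKM with overlapping libraries. Non-overlap with HFD higher was seen for 1 of the 20, pgk1, against 5.48% of all genes, and with HFD lower for 1, against 6.15%.

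The list for carbon entry from lactate, amino acids and glycerol also held malic enzymes. Its counts thus do not describe carbon entry alone. Of its 12 tested genes 6 were higher and 6 lower, 0 passed in either direction, and the median was 0.02. The malic enzyme me3 (MSTRG.22009) had levels of 2.53 ± 0.067 FPKM in HFD and 1.80 ± 0.361 FPKM in NFD that did not overlap, with a limma adjusted p of 0.854. Non-overlap with HFD higher was seen for 1 of the 12, me3, against 5.48% of all tested genes. The glycerol channel aqp10a (MSTRG.18863) was at 22.6 ± 7.43 and 15.8 ± 4.18 FPKM, and the aspartate-glutamate carrier slc25a12 (MSTRG.1067) at 1.00 ± 0.67 and 2.52 ± 2.22, both with overlapping libraries.

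Glycogen is the other source of the glucose-6-phosphate that g6pca.1 cleaves. Of 13 tested genes of glycogen synthesis and breakdown 3 were higher and 10 lower in HFD, 0 passed in either direction, and the median was -0.08. Of all tested genes 50.4% were higher. Among the lower ones ppp1r3ca (-0.00), gys2 (-0.01) and pygmb (-0.01) were so near 0 that their sign carries little. Ugp2a (MSTRG.39696), which makes the glucose donor UDP-glucose, was among the higher ones, at 274, 257 and 296 FPKM in HFD and 231, 214 and 159 in NFD without overlap (log2 fold change 0.47 ± 0.23 SE, limma adjusted p = 0.888). Such non-overlap was seen for 1 of the 13, ugp2a, against 5.48% of all tested genes. The phosphoglucomutase family member pgm2 (MSTRG.20704) was at 3.24 ± 0.493 and 4.83 ± 1.24 FPKM, and the phosphorylase kinase subunit phkg2 (MSTRG.1875) at 0.728 ± 0.232 and 0.356 ± 0.242, both overlapping.

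Of 30 tested genes of hormonal and transcriptional control 19 were higher and 11 lower, 0 passed in either direction, and the median was 0.04. The transcription factor foxo1a (MSTRG.17831), which in mammals drives glucose-6-phosphatase transcription and is held back by insulin, was at 6.09, 6.33 and 8.20 FPKM in HFD and 2.35, 1.86 and 7.20 in NFD. NFD replicate 3 lay among the HFD libraries, and the log2 fold change was 0.97 ± 0.46 SE (limma adjusted p = 0.876). The CREB coactivator crtc1a (MSTRG.1092) was at 2.09 ± 0.168 and 1.63 ± 0.208 FPKM without overlap. It was the 1 of the 30 with every HFD library above every NFD library, against 5.48% of all tested genes. The other tested coactivators of this family, CRTC2 and crtc3, had log2 fold changes of 0.12 and 0.04. The kinase sik1 (MSTRG.22030), which restrains CREB coactivators in mammals, was at 3.10 ± 1.78 and 1.72 ± 0.408 FPKM, highest in HFD replicate 2. The coactivator ppargc1a (MSTRG.18104), chosen after its values were seen, stayed at or below 0.568 FPKM in every library.

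In the routes that lead glucose phosphates elsewhere, 7 of 16 tested genes were higher and 9 lower, 0 passed in either direction, and the median was -0.13. The transketolase tktb (MSTRG.14942), of the pentose phosphate pathway, was at 54.6 ± 5.08 FPKM in HFD and 92.1 ± 15.6 FPKM in NFD (SD, n = 3 each). Its diets did not overlap, with a log2 fold change of -0.74 ± 0.22 SE and a limma adjusted p of 0.740. Non-overlap with HFD lower was seen for 1 of the 16, tktb, against 6.15% of all tested genes. A second transketolase entry, TKT, had a log2 fold change of 0.09 (limma adjusted p = 0.984). Gfpt1 (MSTRG.21467), which draws fructose-6-phosphate into amino sugars, was at 1.20 ± 1.17 and 5.33 ± 2.85 FPKM with overlap.

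**Figure D4:**
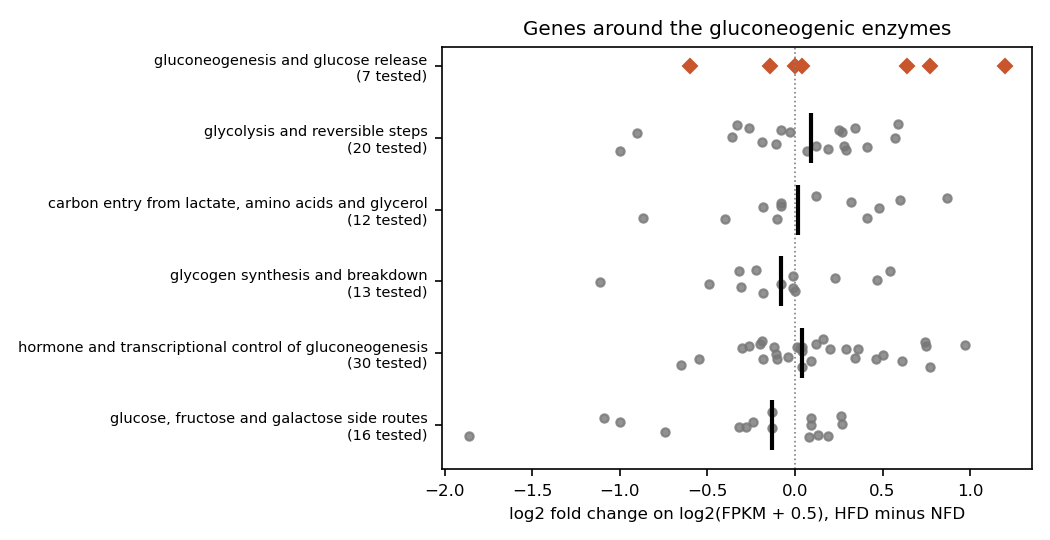
Log2 fold change (HFD minus NFD) of the 7 tested gluconeogenic genes (diamonds) and of every tested member of the 5 surrounding pathway lists (grey points), with a black bar at each list's median. The list medians lie between -0.13 and 0.09; a gene that belongs to several lists is drawn in each, and the vertical position within a row carries no information.

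The tissue label was checked with marker genes. All 22 hepatocyte markers had a value above 0 in at least 1 library, and their summed level was 3930 to 5010 FPKM in HFD and 5390 to 10800 in NFD, without overlap. Its members split evenly, since 8 of 17 tested were higher and 9 lower in HFD. Their median log2 fold change was -0.04. Of the 17, only 1 did not overlap between diets, apoa2/apoeb with HFD lower, against 6.15% of all tested genes. The gene ID apoa2/apoeb alone gave 1670 to 2140 FPKM in HFD and 2170 to 3620 in NFD. The clotting protein fgb was at 3860 and 3100 FPKM in NFD replicates 1 and 3 and at most 1.18 in the other libraries; without it the sums were 3930 to 5010 and 5390 to 6920. The summed level of 10 exocrine pancreas markers was 6680, 4600 and 17800 FPKM in HFD and 16500, 7850 and 3920 in NFD. It exceeded the hepatocyte sum of the same library except in NFD replicate 3, where that sum was 9180 FPKM. Endocrine pancreas markers, 11 in all, summed to 2.12 to 7.43 FPKM in HFD and 1.20 to 1.73 in NFD, without overlap. Of these, insb, neurod1 and nkx2.2b had no estimate in any library. Only 1 of the 11 passed the filter. Of the 3 with the highest means, glucagon, gcgb (MSTRG.13585), was at 0.274, 1.51 and 4.23 FPKM in HFD, at 0.175 in NFD replicate 1 and without an estimate in the other NFD libraries. The transcription factor pdx1 (MSTRG.8057) and the convertase pcsk1 (MSTRG.7081) overlapped between diets, at 0.449 to 1.88 against 0.507 to 1.19 FPKM and at 0.0429 to 0.777 against 0.124 to 0.346 FPKM. The part of the hepatocyte, exocrine and endocrine marker levels in the differences of g6pca.1, fbp1b and pck1 was not tested. Kidney tubule markers, from the other organ that releases glucose, summed to 3.46 to 4.02 FPKM in HFD and 2.73 to 3.79 in NFD, with no estimate for 4 of 12 in any library. Summed levels also overlapped between diets for intestine (10 markers, 6.71 to 14.2 FPKM), erythrocyte (7, 3.12 to 11), macrophage and granulocyte (11, 307 to 868), endothelial (10, 8.39 to 18.7), adipocyte (5, 0.46 to 1.02) and skeletal muscle markers (15, 0.133 to 2.34).

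The lncRNA table held 0 transcripts with the gene ID of any of the 9 genes. The tables give no positions, but gene numbers follow genome order to a large extent. Of 3340 pairs of consecutive numbers with both names in the NCBI table, 93.5% lay within 10 gene entries of each other. By a rule chosen after values were seen, 10 lncRNA transcripts, all tested, had a gene number within 2 of one of the 9. Of these 2 had all HFD libraries above all NFD libraries, against 6.02% of 18368 tested lncRNA transcripts, and both have numbers beside slc2a2. MSTRG.7201.1 was at 2.17, 2.2 and 2.49 FPKM in HFD and at 0.448, 0.884 and 1.00 in NFD (log2 fold change 1.15 ± 0.34 SE). MSTRG.7198.1 was at 2.98, 2.42 and 3.18 FPKM in HFD and at 1.46, 1.21 and 1.38 in NFD (0.86 ± 0.31). The limma adjusted p was 0.982 for each. Neither followed slc2a2 itself, which was highest in HFD replicate 2 and NFD replicate 3. Beside slc37a4b, MSTRG.35195.1 had every HFD library below every NFD library, as had 3.79% of tested lncRNA transcripts. It was at 0.67, 0.395 and 0.598 FPKM in HFD against 1.51, 1.92 and 0.692 in NFD. The gap was narrow, between HFD replicate 1 and NFD replicate 3, and the log2 fold change was -0.78 ± 0.39 SE (limma adjusted p = 0.982).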

How the data were processed

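The authors deposited 1 FPKM value per transcript and library, per the file headers, in a table of 33245 mRNA transcripts and a table of lncRNA transcripts. Per the submitters' processing notes HISAT2 2.0.4, StringTie 1.3.0, edgeR 3.22.3, cutadapt and FastQC were in use, with no role stated. Genome build and strandedness: not given in the sources used here. Entries of 0.0001, which mark a missing estimate, were replaced by 0.

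Transcripts were summed per gene ID, 26490 in all; 12 transcript rows belonged to the 9 genes described. Genes with at least 0.5 FPKM in at least 3 of 6 libraries (lncRNA transcripts, 0.1) were tested. Log2(FPKM + 0.5) of each whole table entered a linear model in limma 3.58.1 under R 4.3.3 (eBayes with a variance trend), on diet alone. All tests are two-sided, with Benjamini-Hochberg adjustment over all features tested and a threshold of 0.05; intervals are 95% and unadjusted. Fold changes on this scale understate the change of low genes. Library depth is unknown, so no counting interval is given. The fit was tested on simulated data with normal noise of the spread of each real gene. Log2 changes of 1, 2, 4 and 6 were given to separate sets of genes in the same fit. It recovered 28% of genes given a log2 change of 1 and 70% of those given 2, with 4 false calls. The larger changes ease the Benjamini-Hochberg cut-off for the smaller ones. The 28% may thus be too high for the real libraries, where 0 genes passed. A change of 1 was thus missed more often than found.

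The 9 genes, the pathway lists and the marker lists were chosen with earlier results of these data known. All 9 genes are named; of each pathway list the 3 members with the smallest p are named, and for g6pca.1 and fbp1b the 3 most similar genes; a gene that this rule takes is not reported here. Alternatives changed the pseudocount (0.1 or 1), the filter, the scaling, the variance prior or the rows summed, added the replicate number as a block, or left out 1 library. A trimmed mean (0.3 from each end) served for centring. Of the 9 gene names, 6 were found in the NCBI gene table, which was used only for names and neighbours. Figures were drawn with matplotlib 3.10.9.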

Additional observations from a re-analysis of the deposited data

How the results depend on the processing

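The log2 fold changes of g6pca.1 (0.95 to 1.37) and fbp1b (0.60 to 0.89) kept their sign and missed the threshold under all 15 alternatives each, with limma adjusted p from 0.577 to 1 and from 0.698 to 1. The same held for pck2 (0.38 to 1.00) and slc37a4b (-0.96 to -0.23). The near-zero changes of the other 3 tested genes turned sign. For slc2a2, -0.0040 with all libraries, the value was 0.01 with trimmed-mean centring and with quantile normalization, 0.21 without HFD replicate 1, 0.25 without HFD replicate 3 and 0.41 without NFD replicate 3, within -0.47 to 0.41 when 1 library was left out. For g6pca.2 it was -0.12 without HFD replicate 1, -0.05 without HFD replicate 3 and -0.58 without NFD replicate 2. For slc37a4a it was 0.77 without HFD replicate 1 and 0.13 without NFD replicate 2, within -0.69 to 0.77. The cause was not tested. Leaving out 1 library, the count of all genes past the threshold ranged from 0 to 4 (4 without NFD replicate 2, with 0 of the gluconeogenic genes among them), and that of single transcripts from 0 to 4. With all libraries it was 0 in limma, with 554 genes at an unadjusted p under 0.05. Replicate numbers did not pair the libraries (correlations of same-numbered deviations -0.005, -0.201 and -0.106); with the replicate number as a block the log2 fold changes were 1.20 for g6pca.1 and 0.77 for fbp1b, with 0 genes past the threshold. The lncRNA alternatives gave no value for the 9 genes, since no lncRNA row carries their gene IDs. With the depth unknown, no counting error can be given for low genes such as pck1 and fbp2.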
